A study of Rattus norvegicus with 36 samples.

Results

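This comparison set protracted cocaine abstinence against acute cocaine withdrawal in the nucleus accumbens (NAc) of male heterogeneous stock (HS) rats, an outbred line in which no animal is genetically the same as another. The 8 NAc libraries of the abstinence and withdrawal groups were chosen by their labels, 4 rats per group, out of 36 libraries in the series. All 8 rats had self-administered cocaine intravenously, first in short and then in extended daily sessions that let intake escalate. The abstinence rats then had 4 weeks without the drug, and the withdrawal rats were sampled after an interval the labels give as 16 h. The paper gives a slightly longer interval for the withdrawal rats. The 4 NAc libraries of naïve rats, which took no cocaine, are given as a background and entered the fit. Rats were matched for age when self-administration began, so the abstinence rats were older at sampling, and age and time since the last cocaine cannot be told apart. The whole NAc was dissected, with core and shell together.

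A miRNA is a short RNA that guides silencing proteins to messenger RNAs, chiefly through pairing of its seed, bases 2 to 8. The 5p and 3p names stand for the RNAs cut from the left and right arm of one hairpin. The NAc receives dopamine from the midbrain and glutamate from the prefrontal cortex and is a core region of reward learning. The 2 intervals sample an early state soon after intake stops and a late state in which cue-driven drug seeking is known to be strong in rodents.

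The comparison turned on 2 sets of miRNAs, and their mature sequences (RefSeq, GRCr8) are shown here with the seed in capitals. The miR-29 3p arms, the guide strands of a family that is abundant in mature brain, share 1 seed. The 3p arms of miR-29a and miR-29c differ at 1 of 22 compared positions, and miR-29b differs from miR-29a at 4.
miR-29a-3p: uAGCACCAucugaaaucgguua
miR-29b-3p: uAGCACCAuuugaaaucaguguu
miR-29c-3p: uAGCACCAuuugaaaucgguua
The second set comes from the miR-183 cluster (miR-183, miR-96 and miR-182), best known from sensory organs, and the miR-200 family, which keeps epithelial cells epithelial.
miR-183-5p: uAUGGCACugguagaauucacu
miR-182: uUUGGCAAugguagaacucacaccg
miR-200c-3p: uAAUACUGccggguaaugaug
In GRCr8, the genes of miR-183, miR-96 and miR-182 lie within 10 kb of each other, as do those of miR-200b, miR-200a and miR-429, of miR-200c and miR-141, of miR-29a and miR-29b1, and of miR-29b2 and miR-29c.

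The values were read counts per mature miRNA. Total counts ran from 10180765 to 12233395 in the abstinence libraries and from 10251905 to 14840649 in the withdrawal libraries, and the RNA integrity number (RIN) from 8.1 to 9.2 and from 8.9 to 9.2. Of 723 miRNAs, 457 passed the filter on low counts and were tested, and these held 99.9976% of the counts of the 8 libraries. A fold change is given as log2 of abstinence over withdrawal from edgeR's quasi-likelihood fit with RIN as a covariate, and a level as the log2 of CPM, counts scaled to a common library total. The profile was that of nervous tissue. miR-128-3p, a neuron-enriched miRNA, took 22.8% of the counts, miR-9a-5p, another neural miRNA, 6.53% and miR-26a-5p, a broadly expressed miRNA, 6.40%. miR-187-3p, which marked the accumbens against cortex in earlier results of these data, lay between 10.22 and 11.08 log2 CPM in all 12 NAc libraries. In the infralimbic (IL) and prelimbic (PL) cortex of the same rats it lay between 5.50 and 8.43.

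2 of the 8 libraries stood apart. In withdrawal rat 3, 5 miRNAs were at least 2-fold above each of the other 11 NAc libraries, and all 5 belonged to the miR-183 cluster and miR-200 groups. In abstinence rat 2, 28 miRNAs were at least 2-fold below and 1 above, out of 404 considered in both cases. Its RIN was 8.1, and its summed CPM of 6 vascular miRNAs, 2495, was under the 4576 to 10133 of the other 7 libraries. The vascular list was not alone. Of the lists given below, the neuron-enriched, immune, erythroid, Htr2c-hosted and accumbens-marking sums were also lowest of the 8 libraries in abstinence rat 2. Its oligodendrocyte, Dlk1-Dio3 and earlier cocaine sums were the highest of the 8. The part of RIN or of tissue composition in the values of abstinence rat 2 was not tested. In bulk tissue fewer cells of a type and less RNA per cell cannot be told apart. The remaining 6 libraries had at most 1 miRNA at least 2-fold apart each, among them abstinence rat 4, with a RIN of 8.2.

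Few miRNAs differed between 4 weeks of abstinence and acute withdrawal in the NAc. With a fold change of at least 1.5 and an unadjusted p under 0.05, 0 of 457 miRNAs (0%) were higher in abstinence and 4 (0.875%) were lower. The 4 were miR-183-5p, miR-182, miR-200b-3p and miR-429, and each owed its call to withdrawal rat 3. At an unadjusted p under 0.05 alone there were 6 (1.31%), the other two being miR-29c-3p and miR-29b-3p, both higher in abstinence. No miRNA had an adjusted p under 0.05 in edgeR's test, where the lowest Benjamini-Hochberg value was 0.999, and none did in DESeq2 or limma-voom. The 2 groups did not overlap for 1 miRNA (0.219%), miR-29c-3p, which was higher in all 4 abstinence rats. It was also the only NAc miRNA the study reported for this contrast. The study used these same thresholds, with limma-voom and RIN after its own filter. Here limma-voom with RIN called miR-29c-3p alone, with a log2 fold change of 0.59 (unadjusted p = 0.0104, adjusted p = 0.995 in limma-voom).

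Across all 457, the median log2 fold change was 0.02, 242 (53%) were above 0, and 90% of values lay between -0.40 and 0.37. The median SD between rats of a group was 0.42 log2 over all tested miRNAs and 0.33 over the 221 with a mean level of at least 5 log2 CPM. Only 2 of those 221 passed a 1.5-fold difference in size. The limma-voom 95% interval of the difference lay wholly within 1.5-fold either way for 129 of 457 miRNAs and for 105 of the 221, so for the rest a 1.5-fold difference was within the error. Pairs of rats from the same group correlated no better than pairs from different groups, with a median Pearson r across miRNAs of 0.980 in 12 pairs and 0.984 in 16.

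**Figure D1:**
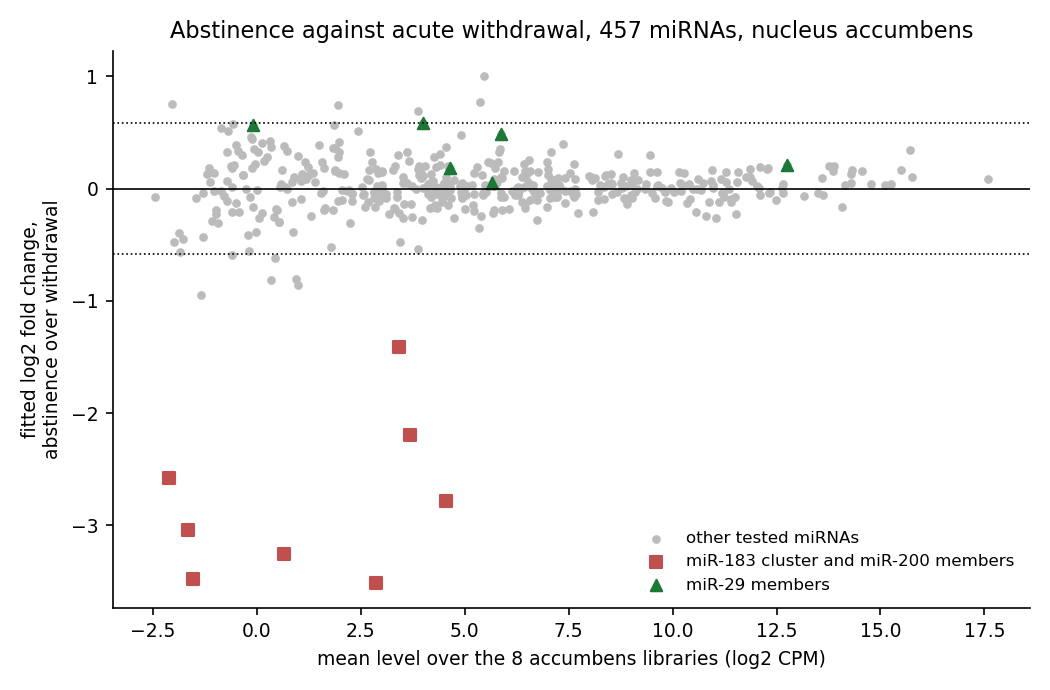
Fitted log2 fold change of abstinence over withdrawal (y axis) against mean level in the 8 NAc libraries (x axis, log2 CPM), 1 point per tested miRNA, with dotted lines at 1.5-fold. The 8 miR-183 cluster and miR-200 members (squares) lie between -1.41 and -3.51, below all others, and the 6 miR-29 members (triangles) all lie above 0.

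The miR-29 family had the highest fitted median of the lists examined. By mean log2 CPM all 6 members were also higher in abstinence. Their median difference was then 0.20, below the 0.29 of the choroid plexus and ependymal list. All 6 tested members had a fitted value above 0, with a median log2 fold change of 0.35 against 0.02 over all tested miRNAs, of which 53% were above 0. Of the 6, 2 had an unadjusted p under 0.05, against 1.31% of all, a share that includes these 2. The family was listed with earlier results of these data known, and the study itself reported miR-29c-3p for this contrast. These counts are therefore a description and not separate evidence. The family is best known for restraining collagen and DNA methyltransferase messenger RNAs, and it increases as neurons mature.

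miR-29c-3p stood at 4.27, 4.24, 4.45 and 4.24 log2 CPM in abstinence rats 1 to 4. In withdrawal rats 1 to 4 it stood at 3.72, 3.61, 3.78 and 3.76. Every abstinence rat was above every withdrawal rat, and each group was narrow, with means of 4.30 ± 0.10 and 3.72 ± 0.08 (SD, n = 4). The fitted log2 fold change was 0.58 (SE 0.24, unadjusted p = 0.0214, adjusted p = 0.999 in edgeR), just short of 1.5-fold. The exact two-sided permutation test gave p = 0.0286, the smallest that 4 rats against 4 allow. That value follows from the lack of overlap and is not separate evidence. Of the 457 tested miRNAs, 1 reached it. The naïve rats, at 4.10, 4.69, 3.70 and 4.18, spanned both groups. The raw counts behind these values were 226 to 302 in abstinence and 166 to 225 in withdrawal.

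miR-29b-3p stood at 5.91, 6.29, 6.23 and 6.10 log2 CPM in abstinence and at 5.39, 5.42, 5.68 and 5.99 in withdrawal. The highest withdrawal rat overlapped the lowest abstinence rat, and the naïve rats ranged from 5.51 to 6.50. The fitted log2 fold change was 0.48 (SE 0.22, unadjusted p = 0.0327, adjusted p = 0.999 in edgeR), and the exact permutation p was 0.0571.

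miR-29a-3p was by far the most abundant member, at 12.60 to 12.97 log2 CPM in abstinence and 12.60 to 12.77 in withdrawal, and the ranges shared their lower end. Its fold change was 0.21 (SE 0.16, unadjusted p = 0.189 in edgeR). miR-29b-2-5p had 0.18, miR-29a-5p, at a level near 0 log2 CPM, 0.57 (SE 0.69), and miR-29c-5p 0.05. Since miR-29a-3p and miR-29c-3p are nearly the same in sequence, reads with 1 wrong base could be counted for the other, and how the counting split them is not given in the sources used here and was not tested. A percentage within each library needs no scaling. miR-29c-3p counts were 0.240% to 0.302% of the miR-29a-3p counts in abstinence and 0.181% to 0.210% in withdrawal, with no overlap. These percentages rest on the same miR-29c-3p counts and are not separate evidence. The naïve rats had 0.217% to 0.302%.

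**Figure D2:**
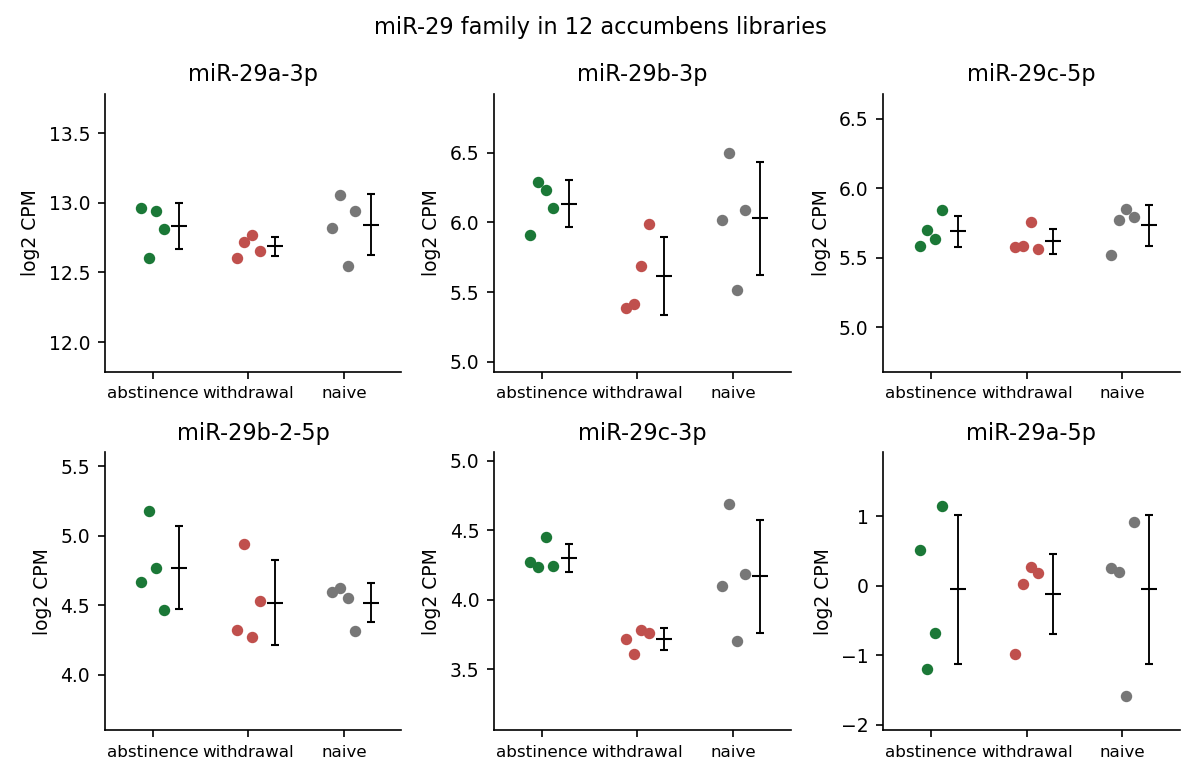
Level of the 6 tested miR-29 members (y axes, log2 CPM, each panel with its own range) in the abstinence, withdrawal and naïve NAc libraries, with 1 point per rat and the mean ± SD beside it. Only in the miR-29c-3p panel do the abstinence points (4.24 to 4.45) all lie above the withdrawal points (3.61 to 3.78), while the naïve points spread over both.

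The ratio of the 2 arms of the miR-29c hairpin did not overlap between the groups, but it did not pass the test after adjustment. The log2 ratio of miR-29c-5p to miR-29c-3p was 1.32, 1.47, 1.19 and 1.60 in abstinence and 1.86, 1.97, 1.97 and 1.80 in withdrawal. All abstinence rats were below all withdrawal rats, with a fitted difference of -0.62 (SE 0.24, unadjusted p = 0.0288, adjusted p = 0.995 in limma). It was the only 1 of 141 hairpins with both arms tested (0.709%) to have an unadjusted p under 0.05. Without withdrawal rat 1 or withdrawal rat 4, no hairpin did. The ratio rests on the same miR-29c-3p values as above and is not separate evidence. miR-29c-5p itself stood at 5.69 ± 0.11 log2 CPM in the 4 abstinence rats and 5.62 ± 0.09 in the 4 withdrawal rats (mean ± SD).

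The miR-183 cluster and the miR-200 family gave the largest fitted differences, and these came from withdrawal rat 3. miR-183-5p was at 3.91, 3.70, 3.97 and 4.73 log2 CPM in abstinence rats 1 to 4. It was at 4.45, 3.41, 9.31 and 2.86 in withdrawal rats 1 to 4. Withdrawal rat 3 had 7696 counts of it, against 99 to 331 in the other 7 libraries. Of the other 3 withdrawal rats, 2 lay below every abstinence rat and 1 within their range. The fitted log2 fold change, -2.79 (SE 1.24, unadjusted p = 0.0321, adjusted p = 0.999 in edgeR), compares mean counts and so follows that library. The exact permutation test on log2 CPM gave p = 0.857.

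miR-182 stood at 7.68 log2 CPM in withdrawal rat 3 and at 2.52 to 3.97 in the other 7 (log2 fold change -2.19, SE 0.98). miR-200b-3p stood at 8.42 against 1.06 to 3.27 (log2 fold change -3.51, SE 1.61). miR-429 had 287 counts in withdrawal rat 3 and 0 to 9 in each of the others (log2 fold change -3.48, SE 1.66). Their unadjusted p in edgeR was 0.0333, 0.0370 and 0.0448, and their exact permutation p ran from 0.629 to 0.771. The other 4 tested members, miR-200a-3p, miR-200a-5p, miR-200b-5p and miR-200c-3p, had fold changes between -1.41 and -3.25 with an unadjusted p above 0.05, and all had their highest level in the same library.

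Fitted without withdrawal rat 3, 7 of the 8 members turned to a log2 fold change above 0, for example 0.56 for miR-183-5p, 0.41 for miR-182, 0.45 for miR-200b-3p and 0.53 for miR-429, and none was called. The summed level of the 8 members was 1368 CPM in withdrawal rat 3 and 23.8 to 64.1 CPM in the other 7 libraries, and 33.3 to 42.4 CPM in the naïve NAc. The same rat had the highest sum in both cortical regions. In the PL it had 2743 CPM, and of the other 11 rats naïve rat 1 had 235 CPM, withdrawal rat 2 had 147 CPM and the rest 23.2 to 48.3 CPM. In the IL it had 169 CPM, against the 109 CPM of withdrawal rat 2 and the 87.1 CPM of withdrawal rat 1, with 23.8 to 52.7 CPM in the rest. The sum was thus many times that of all other rats in the NAc and PL but not in the IL, and the source of these levels was not tested.

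**Figure D3:**
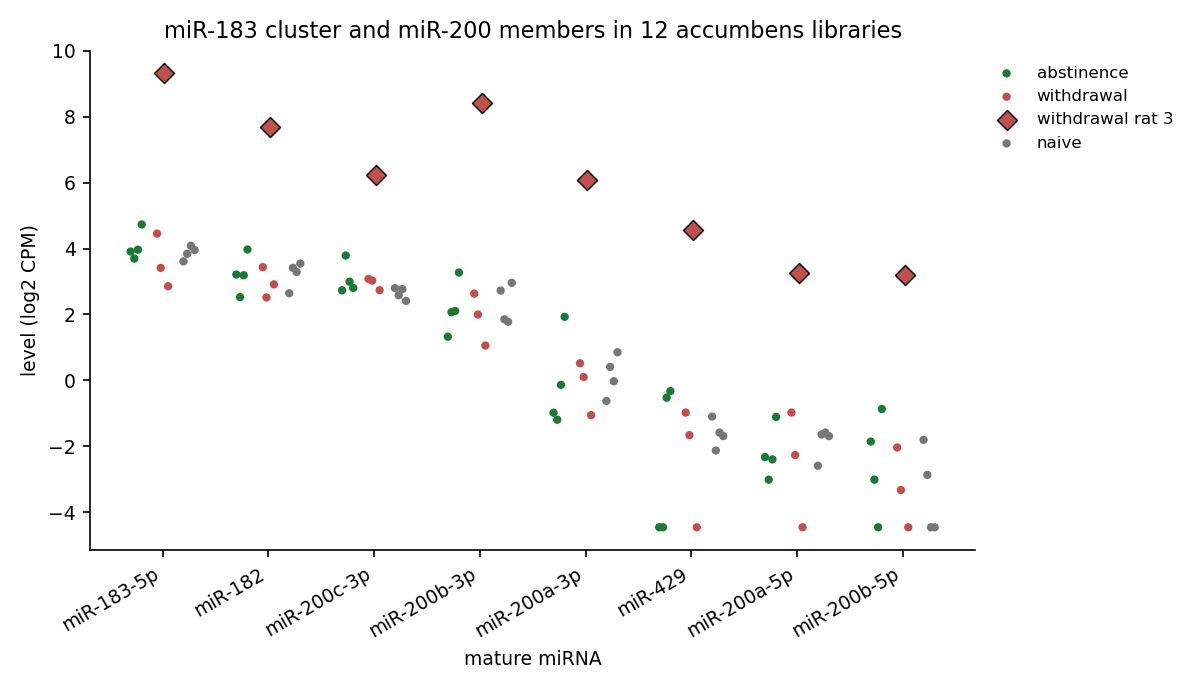
Level (y axis, log2 CPM) of the 8 tested miR-183 cluster and miR-200 members in 12 NAc libraries, 1 point per rat. Withdrawal rat 3 (diamond) stands above every other rat for all 8 members, and the other abstinence, withdrawal and naïve rats overlap; points at the bottom for miR-429, miR-200a-5p and miR-200b-5p are libraries with a count of 0.

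**Figure D4:**
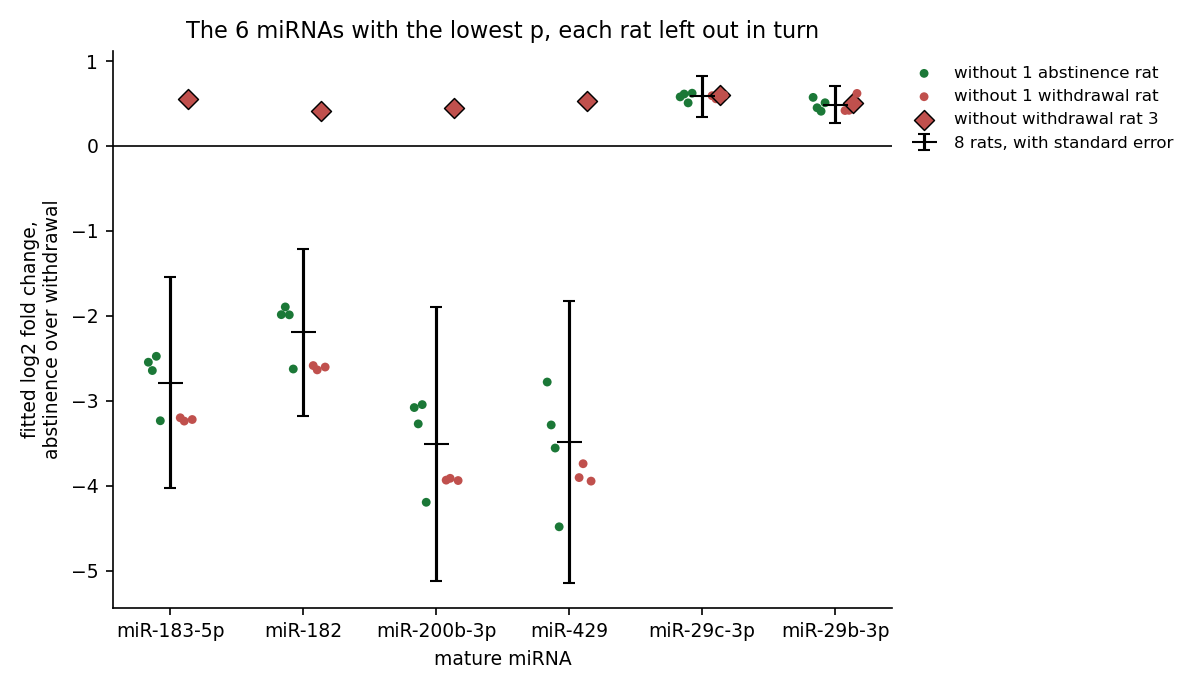
Fitted log2 fold change of abstinence over withdrawal (y axis) for the 6 miRNAs with the lowest p, with all 8 rats (bar with standard error) and with each rat left out in turn (points). Leaving out withdrawal rat 3 (diamond) moves the 4 lower-called values from below -2 to between 0.41 and 0.56, whereas miR-29c-3p stays between 0.51 and 0.62 and miR-29b-3p between 0.41 and 0.62.

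Beyond these families, the miRNAs with the lowest p in each direction showed small or uneven differences, none with an unadjusted p under 0.05. miR-340-5p was at 7.25, 7.64, 7.73 and 7.71 log2 CPM in abstinence and at 7.23, 6.83, 7.38 and 7.10 in withdrawal. Abstinence rat 1 lay within the withdrawal range and the other three above it, for a log2 fold change of 0.40 (SE 0.20, unadjusted p = 0.0559 in edgeR).
miR-210-3p, the miRNA best known for its induction by low oxygen, was at 4.69, 5.07, 4.81 and 4.50 log2 CPM in abstinence and at 4.33, 4.67, 4.12 and 4.12 in withdrawal, with a log2 fold change of 0.37 (SE 0.19). 1 withdrawal rat reached into the abstinence range.
miR-484 had the highest fitted value of all 457 miRNAs, a log2 fold change of 1.00 (SE 0.71, unadjusted p = 0.170 in edgeR). Abstinence rat 1 alone stood high, at 7.44 log2 CPM, and the other 7 rats lay between 4.78 and 5.64. Without abstinence rat 1 the fold change was -0.16.
miR-6216 (0.74), let-7f-1-3p (0.56), miR-134-3p (0.32) and miR-181a-5p (0.20) made up the rest of the 10 lowest p above 0. miR-181a-5p, a miRNA studied in striatum after cocaine, was at 13.87 ± 0.15 log2 CPM in the 4 abstinence rats and 13.65 ± 0.20 in the 4 withdrawal rats (mean ± SD).

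Lower in abstinence by the fit, without passing the test, were miR-1188-3p (log2 fold change -0.80, SE 0.43), miR-224-5p (-0.86, SE 0.57) and miR-412-5p (-0.28, SE 0.17). miR-412-5p, of the imprinted Dlk1-Dio3 locus, ranged from 6.50 to 6.71 log2 CPM in the abstinence rats, and the lowest withdrawal rat, at 6.69, lay just inside that range. miR-1188-3p, of the same locus, was rare, at 0.07 to 1.35 log2 CPM in abstinence and 1.11 to 1.53 in withdrawal.

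The most abundant miRNAs did not pass the test. miR-128-3p took 22.7% ± 4.52 of the counts in abstinence and 22.9% ± 3.38 in withdrawal (SD, n = 4), with a log2 fold change of 0.09 and a limma-voom 95% interval from -0.52 to 0.70. miR-9a-5p took 6.80% ± 3.05 and 6.25% ± 1.17, with an interval from -0.63 to 1.08 and its lowest level, 14.30 log2 CPM, in abstinence rat 2. miR-26a-5p took 6.21% ± 1.09 and 6.58% ± 0.311, with an interval from -0.35 to 0.53. Together the 10 most abundant held 55.8% to 65.2% of the counts of a library.

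Other families and cell-type lists held no called miRNA. Each is given by the number of tested members with a fitted value above 0, beside the 53% of all tested miRNAs, and by its median. By mean log2 CPM, without the fit, 206 of all 457 were higher in abstinence. The let-7 family represses growth genes and accumulates as cells differentiate. It had 7 of 8 guide (5p) arms above 0 (6 by mean log2 CPM) with a median of 0.13. Its 9 tested 3p arms were all above 0 with a median of 0.15. let-7a-1-3p and let-7c-2-3p have the same sequence and the same counts, so they are 1 measurement, and 3 of the 9 had a lower mean log2 CPM in abstinence, against the sign of the fit. let-7a-5p was at 14.33 ± 0.30 log2 CPM in the 4 abstinence rats and 14.28 ± 0.06 in the 4 withdrawal rats (mean ± SD), and let-7c-5p at 13.97 ± 0.41 and 13.79 ± 0.13. The summed level of the 5p arms was 107168 to 132098 CPM in abstinence and 111385 to 121982 CPM in withdrawal, which overlap throughout. Without abstinence rat 2 and withdrawal rat 3 the median of the 5p arms was -0.02, and that of the 3p arms 0.50.

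Choroid plexus and ependymal miRNAs, among them miR-204-5p of the choroid plexus and the miR-34b/c and miR-449a group of ciliated cells, had 8 of 8 members above 0 and a median of 0.26, and 7 of the 8 had a higher mean log2 CPM in abstinence. None had an unadjusted p under 0.05, and their summed level overlapped, at 1987 to 2610 CPM in abstinence and 1556 to 2459 CPM in withdrawal. miR-204-5p was at 11.03 ± 0.16 log2 CPM in the 4 abstinence rats and 10.85 ± 0.27 in the 4 withdrawal rats (mean ± SD).

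Of 19 neuron-enriched miRNAs 11 were above 0 (13 by mean log2 CPM), with a median of 0.04. miR-124-3p, the most neuron-specific of them, was at 12.20 ± 0.32 log2 CPM in the 4 abstinence rats and 12.01 ± 0.25 in the 4 withdrawal rats (mean ± SD). Of 4 oligodendrocyte miRNAs, which promote myelination, 3 were above 0 (4 by mean log2 CPM), with a median of 0.10. miR-219-2-3p was close to even, at 11.60 ± 0.11 log2 CPM in abstinence and 11.49 ± 0.08 in withdrawal. miR-338-3p had a log2 fold change of 0.48 (SE 0.40), with an SD of 0.92 log2 among the 4 abstinence rats. All 6 immune miRNAs were above 0, though only 4 by their mean log2 CPM, with a median of 0.05. Scaling by library totals alone moved that median to -0.04, and the median of all tested miRNAs from 0.02 to -0.08. miR-150-5p, of lymphocytes, had 0.13. The 6 vascular miRNAs divided 3 to 3 with a median of -0.03, though 2 were higher and 4 lower by mean log2 CPM. The only erythroid miRNA tested, miR-451-5p, was lower by the fit at -0.82 (SE 0.69), at 0.235 to 1.92 CPM in abstinence and 1.08 to 3.23 CPM in withdrawal.

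Of 6 activity-regulated miRNAs 5 were below 0 by the fit (4 by mean log2 CPM), with a fitted median of -0.22. None had an unadjusted p under 0.05. miR-132 and miR-212, made from 1 locus under the activity-driven factor CREB, supplied 4 of the 5 below 0 by the fit. miR-132-3p was at 10.60, 11.30, 10.30 and 10.89 log2 CPM in abstinence and at 10.79, 11.08, 10.71 and 10.80 in withdrawal, so the abstinence rats spread on both sides of the withdrawal rats (log2 fold change -0.25, SE 0.18). miR-212-5p was at 10.98, 10.92, 10.63 and 11.18 log2 CPM in abstinence and at 11.17, 11.07, 11.39 and 11.03 in withdrawal, with most of the abstinence rats below (log2 fold change -0.26, SE 0.21, exact permutation p = 0.171). miR-132-5p had -0.21.
Htr2c encodes a serotonin receptor, and the miRNAs hosted by its introns had 5 of 6 members below 0, with a median of -0.15. miR-764-5p led them at -0.53 (SE 0.47), followed by miR-448-3p at -0.28 (SE 0.36) and miR-1298 at -0.12 (SE 0.40). miR-764-5p was at 3.25, 4.13, 3.32 and 3.87 log2 CPM in abstinence and at 4.17, 4.27, 4.07 and 3.98 in withdrawal. Abstinence rat 2 lay within the withdrawal range and the other three below it (exact permutation p = 0.0857). Fits of the NAc libraries alone, which do not share the spread of the cortex, put miR-764-5p past the 1.5-fold threshold, at -0.79 in the 8 libraries (SE 0.20, unadjusted p = 0.00352, adjusted p = 0.999 in edgeR) and at -0.68 in the 12 (SE 0.18, unadjusted p = 0.00298, adjusted p = 0.651).

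The imprinted Dlk1-Dio3 locus is a large cluster of miRNAs with many roles in neurons. It had 38 of 84 tested members above 0 (34 by mean log2 CPM) and a median of -0.01. Its summed level was 82954 to 106857 CPM in abstinence and 80213 to 103719 CPM in withdrawal. Of 11 miRNAs taken from earlier work on cocaine in rodent striatum, 5 were above 0 and 6 below, with a median of -0.05. By mean log2 CPM 4 of them were higher and 7 lower. The 6 miRNAs that marked accumbens against cortex divided 3 to 3 with a median of 0.02. By mean log2 CPM 1 of these was higher and 5 lower, with a median difference of -0.04. The 19 miRNAs the study lists for abstinence against withdrawal in any of the 3 regions, a list chosen on these same samples, had 10 above 0 (5 by mean log2 CPM, where 206 of all 457 were), a median of 0.02 and 1 member with an unadjusted p under 0.05, miR-29c-3p.

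**Figure D5:**
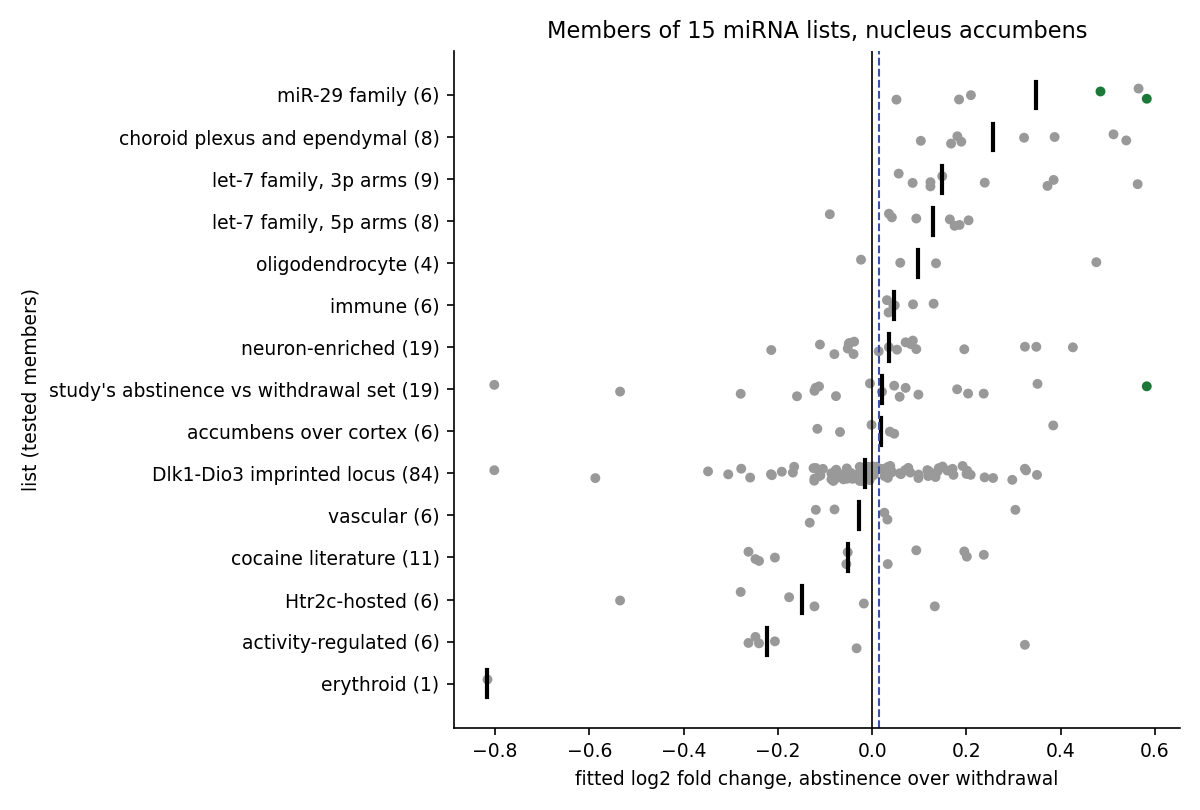
Fitted log2 fold change of abstinence over withdrawal (x axis) of the tested members of 15 lists (rows, with the number tested), 1 point per miRNA, green where the unadjusted p was under 0.05; black bars are list medians and the dashed line the median of all 457 (0.02). The miR-29 row has the highest median, 0.35, and holds both miRNAs with an unadjusted p under 0.05, of which miR-29c-3p appears again in the row of the study's list.

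Grouped by seed from the RefSeq sequences, which matched 411 of the 457 miRNAs, 8 seeds were shared by at least 4 tested miRNAs each, 37 miRNAs in all, among which let-7a-1-3p and let-7c-2-3p are 1 sequence under 2 names. The highest medians were those of the miR-34 and miR-449 seed GGCAGUG (0.35, 3 of 4 above 0), the miR-15/16 seed AGCAGCA (0.20, 3 of 5) and the miR-30 seed GUAAACA (0.18, 4 of 4, with miR-384-5p). miR-30b-5p and miR-30d-5p of that family had no single RefSeq sequence here and were not grouped, and both were at -0.16. The lowest were those of the miR-25/92 seed AUUGCAC (-0.02, 2 of 4), the miR-17 seed AAAGUGC (0.02, 3 of 4) and the miR-181 seed ACAUUCA (0.04, 2 of 4). The miR-29 seed AGCACCA was shared by 3 tested miRNAs, those printed above, at 0.21, 0.48 and 0.58. None of the 8 groups held a miRNA with an unadjusted p under 0.05.

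The same contrast was then set against the change in the cortex of the same rats. The change in the NAc minus that in the IL passed 1.5-fold with an unadjusted p under 0.05 for 7 of 457 miRNAs (1.53%), and for 12 with the rat as a block. The change in the NAc minus that in the PL did so for 4 (0.875%), and for 5 with the block. None had an adjusted p under 0.05 in edgeR, with a lowest value of 0.665 for the IL, and 0.967 with the block. miR-187-3p had the lowest p. It was level in the NAc, at 11.08, 10.52, 10.57 and 10.78 log2 CPM in abstinence and 10.86, 10.91, 10.74 and 10.47 in withdrawal. In the IL it stood at 5.50, 6.25, 5.98 and 5.72 log2 CPM in abstinence and 8.43, 7.02, 6.40 and 6.58 in withdrawal, with no overlap. The difference of the changes was 1.48 (SE 0.42, unadjusted p = 0.00146, adjusted p = 0.665 in edgeR). It was 0.84 without withdrawal rat 1, whose IL level was the highest.
For miR-1188-3p the NAc change minus the PL change was -1.61 (SE 0.60, unadjusted p = 0.0113 in edgeR). In the PL it stood at 1.23, 1.76, 0.63 and 0.88 log2 CPM in abstinence and at 0.48, 0.67, -4.46 and 0.21 in withdrawal, where -4.46 stands for a count of 0 in withdrawal rat 3.
The log2 fold change of miR-29c-3p was 0.58 in the NAc, 0.15 (SE 0.24) in the IL and 0.17 (SE 0.25) in the PL. The differences, 0.43 (SE 0.34) from the IL and 0.41 (SE 0.33) from the PL, did not pass the test, so a change particular to the NAc was not shown. That of miR-29b-3p was 0.48, 0.33 and 0.33 in the NAc, IL and PL.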

How the data were processed

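The authors deposited unnormalised counts for each mature miRNA, obtained from NEBNext small RNA libraries of total RNA with CAP-miRseq (version not given in the sources used here). The paper's methods and the submitters' processing notes (mRatBN7.2, rn7) name different genome builds, so no coordinates are printed. Libraries were tied to groups, regions and rats by the sample labels and the study's sample list, except 1 naïve NAc library, whose group and region come from its labels but which was tied to its rat by elimination; this bears on the rat block. Sequencing pools of each library are not given in the sources used here, so their effect was not tested. Counts were filtered with filterByExpr (minimum count 10, minimum total 15) and library sizes were adjusted with TMM factors. edgeR 4.0.16 (R 4.3.3) fitted the quasi-likelihood model to all 36 libraries, with 9 group-by-region means and RIN. Log2 CPM used a prior count of 0.5. Ratios of arms were tested with limma 3.58.1 on the 8 NAc libraries, with RIN. Single values were compared by an exact two-sided permutation test. DESeq2 1.42.0 and limma-voom were alternatives. Rats pair the regions, not the 2 groups, and the consensus correlation between libraries of 1 rat was 0.117, so rat was also fitted as a block. The 12 within-group pairs of the 8 libraries were checked for duplicates: 0 were identical, and chi-square divided by its degrees of freedom was at least 210. Each rat is 1 replicate. The edgeR test of the NAc contrast was run first on simulated counts with known changes. The other tests were not. The comparison, the miRNAs and the lists were chosen with earlier results of these data known. Named miRNAs are those past the thresholds, the 10 lowest p in each direction, all miR-183 cluster, miR-200 and miR-29 members, the most abundant members of each list, the study's list, the 10 most abundant miRNAs, and the 5 lowest p of each difference between regions and of the arm ratios; of these the text gives a part. Lists that share members, such as neuron-enriched and earlier cocaine work, are not independent. Figures were drawn with matplotlib 3.10.9.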

Additional observations from a re-analysis of the deposited data

Results flagged for a closer look

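Among 43 miRNAs and 17 list sums in the 2 groups, 120 groups of 4 values, 7 held a rat far from the other three; chance alone marks about 1 group in 20. Withdrawal rat 3 gave 5 of them. Its miR-200c-3p was 6.22 log2 CPM, with the nearest rat at 3.08. Its summed miR-183 cluster level was 841 CPM, with the nearest at 32.7 CPM, and its summed miR-200 level 527 CPM, with the nearest at 17.1 CPM. Its miR-29c-5p was 5.75 log2 CPM, with the nearest at 5.58, and its summed immune miRNAs 2790 CPM, with the nearest at 2234 CPM. Abstinence rat 2 had miR-26a-5p at 15.18 log2 CPM, with the nearest at 15.87. Abstinence rat 3 had miR-29c-3p at 4.45 log2 CPM, with the nearest at 4.27, and without it the log2 fold change of miR-29c-3p was 0.51 (unadjusted p = 0.0768 in edgeR).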

How the results depend on the processing

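In all 20 alternatives the count of miRNAs with an adjusted p under 0.05 was 0. The 4 lower miRNAs lost their call without withdrawal rat 3, in limma-voom (0 lower, and 0 with a replicate block for the rat) and in the 8 NAc libraries alone, which called 2 others lower, miR-764-5p (-0.79) and miR-871-3p (-1.23). A fit with no RIN covariate called 8 lower, all of them miR-183 cluster and miR-200 members. Higher in abstinence were 1 with DESeq2 size factors, 1 with a filter that ignored groups, 1 with DESeq2, 1 with limma-voom and 1 with its replicate block (each time miR-29c-3p), 2 in the 8 NAc libraries alone, 3 in the 12 and 4 with no filter. miR-29c-3p passed 1.5-fold with an unadjusted p under 0.05 in 14 of 20 alternatives, with values from 0.50 to 0.69. Scaling by library totals alone gave the lowest (unadjusted p = 0.0950 in edgeR). Among the fits with 1 rat left out, miR-29c-3p did not pass without abstinence rat 1, abstinence rat 3 or withdrawal rat 2. With rats left out, including abstinence rat 2 and withdrawal rat 3 together, which was chosen after seeing the data, the count higher ran from 0 to 5 and the count lower from 0 to 7. Without abstinence rat 1, 2 or 3 it was 0, and without withdrawal rat 3 it was 1. The NAc minus IL count ran from 6 to 42 and was 12 with the replicate block. The NAc minus PL count ran from 2 to 16 and was 5 with the replicate block. miRNAs without overlap ran from 2 to 22 higher and from 1 to 18 lower, where groups are smaller. With DESeq2 size factors 3 were higher, and with library totals 2 were higher and 1 lower. Arm ratios with an unadjusted p under 0.05 ran from 0 to 2. The highest counts, 5, 42, 16, 22 and 18, were those with both rats left out. In limma-voom the block called miR-29c-3p alone, the same as without it.

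Of 881 values for 46 named miRNAs and differences, 777 kept direction and side of the threshold and 33 changed direction. With rats left out, the ranges of those were -2.64 to 0.54 for miR-182, -3.24 to 0.56 for miR-183-5p, -4.57 to 0.38 for miR-200a-3p, -4.19 to 0.45 for miR-200b-3p, -3.92 to 1.21 for miR-200b-5p, -1.76 to 0.068 for miR-200c-3p and -4.48 to 0.75 for miR-429. Others that crossed 0 ran from -0.045 to 1.04 for miR-29a-5p, -0.032 to 0.34 for miR-29b-2-5p, -0.16 to 1.30 for miR-484, -0.082 to 0.38 for miR-128-3p, -0.029 to 0.75 for miR-9a-5p, -0.0085 to 0.27 for miR-26a-5p, -0.032 to 0.33 for miR-124-3p, -0.034 to 0.23 for miR-150-5p, -0.083 to 0.14 for miR-187-3p, -0.35 to 0.11 for miR-1298 and -0.059 to 0.31 for let-7c-5p. With library totals alone miR-187-3p was -0.036, miR-219-2-3p -0.022 and miR-29c-5p -0.033; with no RIN covariate miR-187-3p was -0.0028 and miR-26a-5p -0.023; in the 12 NAc libraries miR-29c-5p was -0.016. The cause of these changes was not tested beyond the rats left out. The median of all miRNAs moved from 0.02 to -0.08 with library totals and to 0.11 with no filter. The effect of sequencing depth was not tested, and values of rare miRNAs such as miR-429, with 0 to 9 counts in 7 of the 8 libraries, rest on few reads.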
